A study of Mus musculus with 35 samples.

Results

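The suprarenal aorta of male ApoE-/- mice was compared between angiotensin II (Ang II) and saline after 28 days of infusion. The comparison holds 11 of the 35 arrays of the study, the 6 arrays titled Ang II at 28 days and the 5 titled saline at 28 days. Its arrays were taken by those titles, and the comparison was chosen with earlier results of these data known. Both groups lacked ApoE, so every saline mouse carried the same gene disruption as the treated mice, and no wild-type mouse entered. An osmotic minipump placed under the skin at 12 to 14 weeks of age delivered either Ang II at 1000 ng/kg/min or saline. The entire suprarenal aorta was frozen after perfusion with saline, and each array held 1 aorta. The labels call the Ang II tissue at 28 days aneurysm and give no size of it, and no dissected aorta is labelled at that time. RNA of the aorta was amplified and labelled with Cy5, and the Cy3 channel of every array held a common reference of mouse RNA, with no dye swap. Each value below is a log2 ratio of aorta over reference, so it compares aortas with each other for 1 gene and not 1 gene with another.

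Ang II raises blood pressure and acts on cells of the vessel wall through its type 1 receptor, and its infusion into hypercholesterolaemic mice is a widely used model of suprarenal aneurysm. The aortic media is built of smooth muscle cells and elastic lamellae, with fibroblasts in the surrounding adventitia. Macrophages enter the wall early in this model and release proteases that cut elastin and collagen, while fibroblasts and smooth muscle cells lay down new collagen. In RNA of whole tissue, more cells of a type and more RNA per cell cannot be told apart.

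The labelled tissue was checked against defining markers. On all 11 arrays, 18 of 21 contractile smooth muscle genes, 23 of 23 endothelial genes and 15 of 15 adventitial fibroblast genes were well above background in the aorta channel. So were 28 of 32 macrophage, 19 of 21 white and common adipocyte, 14 of 15 brown adipocyte and 9 of 15 skeletal muscle genes. Detection alone thus does not set the aortic wall apart from other tissue. For Apoe, the disrupted gene, the change with Ang II was 0.22 with a limma adjusted p of 0.741, and its probe was well above background on all 11 arrays. The place of that probe relative to the disruption is not given in the sources used here, so it checks nothing about the genotype. Between 45 and 61.9 percent of spots were well above background in the aorta channel, lowest on saline 5. Some libraries stood apart in genes of other cells. The mean level of the B cells and plasma cells list, relative to the mean of the saline aortas, was 2.74 in Ang II 5, 1.97 in Ang II 6 and 1.17 in saline 3, and between -0.554 and 0.369 in the other aortas. The skeletal muscle list stood at 3.43 in Ang II 5 and 2.49 in Ang II 1, against -0.796 to 0.937 elsewhere. Saline 1 was highest for the hepatocyte list, at 2.24 against -1.11 to 0.905 elsewhere. It was also highest for the adrenal cortex list, at 1.17 against -0.567 to -0.0922. The brown adipocyte list stood at 1.15, 0.733, 0.441, -0.755 and -1.57 in saline 1 to 5 and from -0.679 to 0.877 with Ang II. White and common adipocyte genes ran from 0.79 in saline 1 to -0.773 in saline 5, and from -0.348 to 0.803 with Ang II. The arrays were scanned on 2 days, with Ang II 1 to 3 and saline 2 and 3 on day 1 and the other 6 on day 2.

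At 28 days 215 of 18670 genes differed between Ang II and saline (limma, Benjamini-Hochberg adjusted p below 0.05), and most of them were higher with Ang II. The 180 that rose are 0.964 percent of the genes tested and the 35 that fell are 0.187 percent. At an unadjusted p below 0.05, 1689 genes (9.05 percent) were higher and 1084 (5.81 percent) lower. Among the largest rises without overlap between the groups were products of macrophages (Trem2, Clec7a, Lgals3, Mpeg1, Ctss), collagen VIII (Col8a1), the growth factor Fgf18 and the protease inhibitor Timp1. Without saline 2 and 4 together 20 genes were called. Of the 215 genes, 122 changed at least 2-fold, and the median log2 change over all genes tested was 1.9e-05. In 114 of the 215 the values of the 6 Ang II aortas and the 5 saline aortas did not overlap, 94 of them higher with Ang II, while 1.22 percent of all genes tested had no overlap. Over the 180 genes that rose, whose choice fixes the direction, the median level relative to the mean of the saline aortas was 0.98, 0.63, 1.14, 1.39, 1.81 and 0.906 in Ang II aortas 1 to 6. The saline aortas stood between -0.191 and 0.193 on that measure.

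The count depended on single aortas and on the spread that was pooled. The fit used the 28 residual degrees of freedom of all 35 arrays; on the 11 arrays at 28 days alone only 1 gene was called, Fgf18. Leaving out Ang II 5 left 64 calls, and leaving out saline 1, saline 5 or saline 4 left 77, 117 or 142. Without Ang II 2 the count was 590, and without Ang II 3 it was 439. Within scan day 1, with 3 Ang II and 2 saline aortas, 109 genes were called, 13 of them among the 215, and within scan day 2, with 3 of each, 3308 were called, 194 of them among the 215. With the scan day as a block 216 genes were called, 199 of them among the 215. The sign of all 215 was the same under each of these settings. The 215 genes were chosen on these same arrays, which favours a kept sign.

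**Figure D1:**
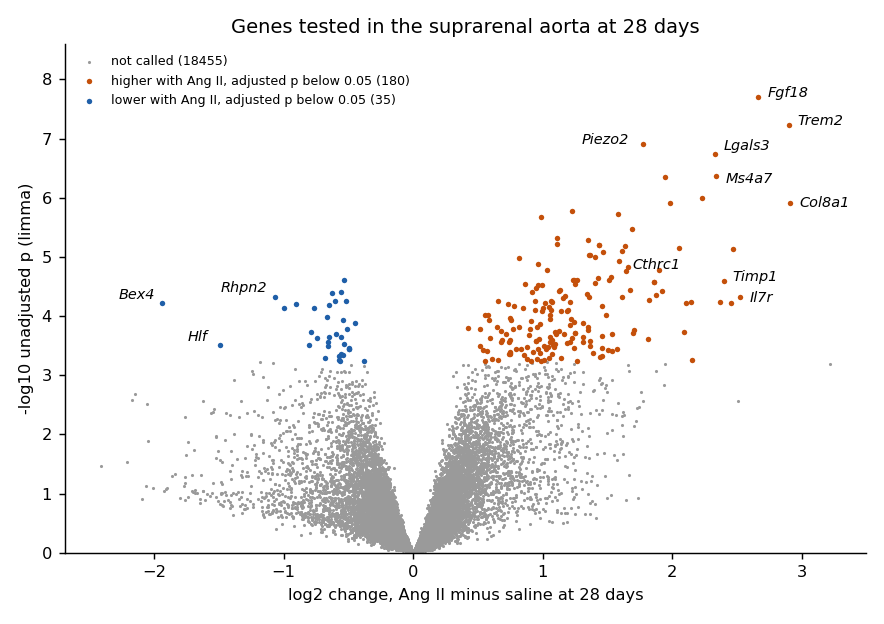
Each point is 1 of 18670 genes, with the log2 change of Ang II against saline at 28 days on the horizontal axis and -log10 of the unadjusted limma p on the vertical axis. Colours mark the 180 genes called higher and the 35 called lower; the called genes on the right reach a log2 change of 2.91 (Col8a1) and the called genes on the left reach -1.94 (Bex4).

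Macrophage genes gave more calls than any other list described here. Of 32 macrophage genes tested, 19 rose and none fell, 29 had a positive change and their median log2 change was 1.23, against 1.9e-05 over all genes. In 12 of the 32 the groups did not overlap, against 1.22 percent of all genes tested. Over all genes tested 0.964 percent rose and 0.187 percent fell. These are the shares to set beside this and every list count below from all 11 aortas at 28 days. List counts within a scan day go beside other totals. Of 18670 genes, 91 were called higher and 18 lower within day 1, and 1790 higher and 1518 lower within day 2. All lists were written with earlier results of these data known. The mean level of the list ran from 0.655 to 1.72 in the Ang II aortas and from -0.405 to 0.451 in the saline aortas, so the groups did not overlap on it. Within scan day 1 and scan day 2 the median was 1.26 and 1.27, with 2 and 19 genes called higher and 0 and 1 called lower. The count of 19 fell to 10 without saline 1 and to 11 without Ang II 5, with medians of 1.22 and 1.14, and to 12 without both aortas of high B cell level. No gene of the list was called in the fit on 11 arrays, where Fgf18 alone was.

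Trem2, a lipid receptor that marks lipid-laden macrophages, stood at -2.39, -2.49, -2.29, -1.36 and -1.61 in saline aortas 1 to 5. Its values in the Ang II aortas ran from -0.92 through a median of 0.93 to 2.13. The lowest Ang II aorta, number 6, was above every saline aorta, and the difference was 2.9 (SE 0.41, 7.47-fold, limma adjusted p = 0.000543). Tyrobp, which encodes the adaptor through which Trem2 signals, was -0.012, 0.23, 0.74, 0.45 and 0.32 in the saline aortas. With Ang II it ran from 1.24 through a median of 1.93 to 2.8. These groups did not overlap either, and Tyrobp rose by 1.61 (SE 0.3, limma adjusted p = 0.00657). Syk, a kinase downstream of that adaptor, rose by 1.49 with overlapping groups, and its call was lost without saline 1, saline 5 or Ang II 5 (highest limma adjusted p 0.0757).

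Lgals3 encodes galectin-3, a secreted lectin abundant in macrophages. Its saline values were -3.57, -3.09, -3.31, -3.55 and -4.0. Across the Ang II aortas it ran from -2.76 through a median of -1.16 to -0.064. All 6 were above the highest saline aorta, with aorta 6 lowest as for Trem2, and the rise was 2.33 (SE 0.35, 5.03-fold, limma adjusted p = 0.000844). Mpeg1, a pore-forming protein of macrophages, was -0.68, -0.99, 0.31, -0.29 and -1.18 with saline. It ran from 0.81 through a median of 1.68 to 2.57 with Ang II. The groups did not overlap and the rise was 2.23 (SE 0.37, limma adjusted p = 0.00257). Itgax, the CD11c integrin chain of dendritic cells and some macrophages, went from -0.45, 0.036, 0.47, -0.087 and -0.34 to a range from 0.94 through a median of 1.89 to 3.16. Again every Ang II aorta was above every saline aorta (change 1.98, SE 0.33, limma adjusted p = 0.00257). Cd68, the lysosomal glycoprotein used to stain macrophages, was -1.75, -2.3, -1.3, -1.16 and -1.48 in saline aortas. The Ang II values ran from -0.73 through a median of -0.28 to 1.24, above all saline values, for a rise of 1.66 (SE 0.32, limma adjusted p = 0.00924).

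Other members showed the same direction with less even support. Clec7a, the beta-glucan receptor dectin-1, rose by 2.37 without overlap, from a highest saline value of -0.50 to Ang II values from 0.12 through a median of 1.18 to 3.86; its call was lost without saline 1 (limma adjusted p = 0.054). Ms4a7 rose by 2.34 (limma adjusted p = 0.00138), and its lowest Ang II value, 1.28, lay just under the highest saline value, 1.29. Adgre1, the F4/80 antigen, rose by 1.07 with overlapping groups, and its call held without only 3 of the 11 arrays (highest limma adjusted p 0.134). Gpnmb, a glycoprotein of lipid-laden phagocytes, ran from -2.04 through a median of -0.32 to 1.77 with Ang II against -2.65, -3.25, -2.59, -2.0 and -2.01 with saline. Ang II 6 lay inside the saline range, and the change was 2.11 (limma adjusted p = 0.0144), not called without saline 1 (limma adjusted p = 0.0511). Spp1, which encodes osteopontin, had a change of 2.51 that did not pass (limma adjusted p = 0.0999); Ang II 2 to 5 were above the saline range and Ang II 1 and 6 inside it. Cd5l, a secreted macrophage protein, had a change of 3.22 that also did not pass (limma adjusted p = 0.0542), with saline values of 3.32, 1.28, 5.63, 3.31 and 0.82.

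Further genes among the largest rises without overlap belong to myeloid cells. Adam8, a membrane protease of leukocytes, stood at -2.59, -2.79, -2.59, -2.72 and -3.27 with saline. Its Ang II values ran from -2.11 through a median of -0.85 to 1.44. Ang II 4 and 5 were far above the rest and Ang II 1 and 6 nearest to saline, and the rise was 2.15 (limma adjusted p = 0.0144), not called without Ang II 5 (limma adjusted p = 0.0537). Mefv, which encodes the inflammasome protein pyrin, rose by 2.09; its probe was well above background on 3 of 5 saline arrays, and the call was lost without saline 1, saline 4, saline 5, Ang II 4 or Ang II 5 (highest limma adjusted p 0.102). Cd300c2, a receptor of myeloid cells, rose by 2.05 (limma adjusted p = 0.00657) and Wfdc17, a secreted protein of activated macrophages, by 1.9 (limma adjusted p = 0.00967), and both stayed called without each array in turn.

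**Figure D2:**
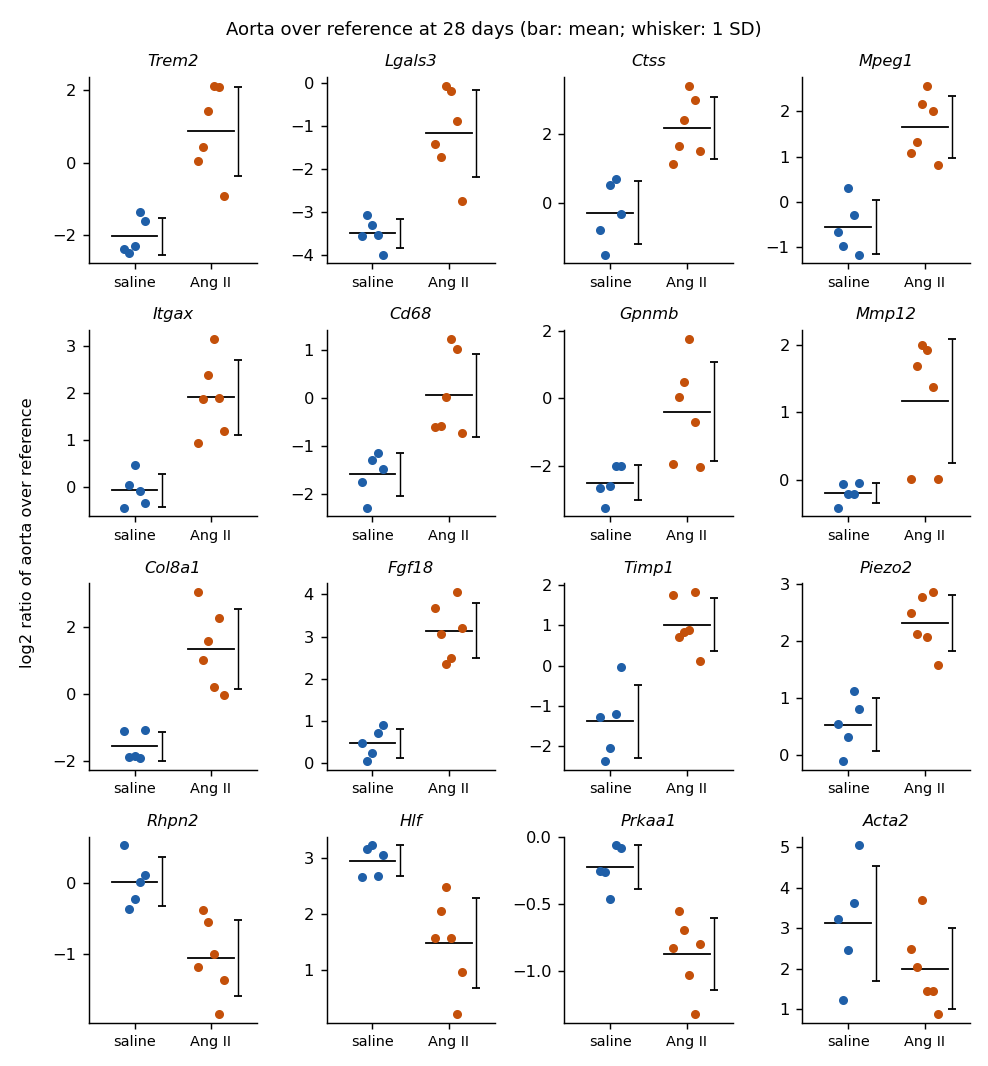
Each panel gives 1 gene at 28 days, with the log2 ratio of aorta over reference on the vertical axis and 1 point per aorta for 5 saline and 6 Ang II aortas; bars are means and whiskers 1 SD. The macrophage genes, Col8a1, Fgf18, Timp1 and Piezo2 are higher with Ang II, Rhpn2, Hlf and Prkaa1 are lower, and the Acta2 values overlap widely.

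Genes of the lysosome, of lipid handling and of inflammatory mediators were picked out after their values were seen, so their joint direction is a property of that choice. The lysosomal proteases Lgmn and Ctsb rose by 1.22 and 0.9 (limma adjusted p = 0.00311 and 0.026), the sphingolipid activator Psap by 1.23 (0.0114 on the same test) and the lysosomal hydrolase Gusb by 1.11 (0.00636). Psap stood at 0.11, 1.14, 0.98, 0.0011 and -0.92 in saline aortas and from 1.15 through a median of 1.4 to 2.11 with Ang II, so the groups were separate by a small margin. Soat1, which esterifies cholesterol for storage, and Abcg1, which exports it, rose by 1.25 and 1.06. Enzymes of prostaglandin, thromboxane and leukotriene synthesis also rose, Ptges by 1.06, Tbxas1 by 1.08, Hpgds by 0.66 and Alox5ap, the 5-lipoxygenase activating protein, by 0.96. Hpgds was well above background on 4 Ang II and 1 saline arrays only. Cybb, a subunit of the phagocyte NADPH oxidase, rose by 1.44 (limma adjusted p = 0.00636) without overlap, and 9 of 24 oxidative stress genes had a negative change. Lgmn, Psap, Gusb and Cybb stayed called without each array in turn. The Psap change was 0.265 within scan day 1 and 1.93 within scan day 2 (limma adjusted p = 0.751 and 0.00016). Ctsb was lost without saline 1, saline 5, Ang II 4 or Ang II 5, and Soat1, Abcg1 and the mediator enzymes each without at least 1 array, Hpgds only without saline 5 and Ptges without saline 2, Ang II 4 or Ang II 5 (highest limma adjusted p 0.174, for Alox5ap).

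Promoters are shown because 17 of the genes that rose carry 1 short word near their start. The word, GAGGAAGT, is a form of the site that PU.1, a transcription factor of myeloid cells, is known to bind, and was searched on both strands in the 250 bases before each RefSeq start (GRCm38.p6). It was found for 17 of 127 genes that rose and had a promoter in the table (13.4 percent), for 0 of 27 that fell, for 336 of 12247 genes tested (2.74 percent) and for 755 of 27025 genes of the table (2.79 percent). The 4 promoters below belong to called genes of immune cells, were picked after their values were seen, are written 5′ to 3′ along the gene, and have the word in capitals, as its reverse complement ACTTCCTC where it lies on the other strand. Bcl2a1b is at chr9:89199023-89199272 on the plus strand, Cd72 at chr4:43454627-43454876 on the minus strand, Havcr2 at chr11:46454681-46454930 on the plus strand and Fcgr4 at chr1:171018676-171018925 on the plus strand.
Bcl2a1b: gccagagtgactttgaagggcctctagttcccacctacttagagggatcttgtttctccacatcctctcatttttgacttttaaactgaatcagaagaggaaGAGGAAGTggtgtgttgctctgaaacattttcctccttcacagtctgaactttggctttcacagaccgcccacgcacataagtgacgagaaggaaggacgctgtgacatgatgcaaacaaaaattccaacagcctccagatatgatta
Cd72: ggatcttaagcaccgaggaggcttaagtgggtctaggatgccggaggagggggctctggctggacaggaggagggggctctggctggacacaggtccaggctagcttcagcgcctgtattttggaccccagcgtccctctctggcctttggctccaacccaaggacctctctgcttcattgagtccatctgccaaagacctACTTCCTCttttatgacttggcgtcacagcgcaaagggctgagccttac
Havcr2: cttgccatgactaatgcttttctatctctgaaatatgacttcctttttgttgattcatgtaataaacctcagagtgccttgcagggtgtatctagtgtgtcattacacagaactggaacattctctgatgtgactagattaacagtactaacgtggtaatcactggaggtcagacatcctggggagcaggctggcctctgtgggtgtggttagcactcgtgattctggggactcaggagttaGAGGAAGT
Fcgr4: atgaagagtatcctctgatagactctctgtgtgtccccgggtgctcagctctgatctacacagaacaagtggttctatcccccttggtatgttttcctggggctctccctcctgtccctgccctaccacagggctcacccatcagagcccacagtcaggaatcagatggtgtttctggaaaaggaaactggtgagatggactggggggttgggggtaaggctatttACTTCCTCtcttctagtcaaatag
The word began 148, 49, 8 and 24 bases before the start in these promoters. Bcl2a1b, a survival factor of leukocytes with near-identical copies that the probe may not tell apart, rose by 2.45 and was lost without saline 5 or Ang II 5 (highest limma adjusted p 0.0589). Cd72, a receptor of B cells and macrophages, rose by 1.92 and was lost without Ang II 5 (limma adjusted p = 0.0517), the aorta with the highest B cell level. Without Ang II 5 and 6 the Cd72 change was 1.445 (limma adjusted p = 0.151). The part of the B cell level by itself was not tested. Havcr2, the inhibitory receptor TIM-3, rose by 1.58, and Fcgr4, an activating Fc receptor, by 1.51 (limma adjusted p = 0.00321 and 0.0114). Their calls without single arrays are not reported. Arhgap25, which rose by 1.53 and also held the word, is not shown above. The shorter words AGAGGAA and GAGGAA, the second of which lies inside GAGGAAGT, AGAGGAA and the reverse complement of TTTCCTCTT, were found for 22.8 and 44.9 percent of the genes that rose, against 9.39 and 25.8 percent of those tested. TGAGTCA, the AP-1 word, was found for 7.87 percent against 4.4 percent, and CACGTG, an E-box, for 6.3 percent against 9.26 percent. TTTCCTCTT was found for 0 of the 127 and for 0.808 percent of those tested. A match describes the letters only, and no binding was measured.

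The lymphocyte and antigen presentation lists had their highest levels in Ang II 5 and 6. All 15 T cell genes tested had a positive change (median 0.884), but only Il7r passed the test. Il7r, the interleukin-7 receptor of T cells and other lymphoid cells, stood at 0.32, 0.26, 1.37, 1.47 and 0.38 with saline and from 1.43 through a median of 3.21 to 5.15 with Ang II. Ang II 1 lay inside the saline range and Ang II 5 and 6 were highest; the probe was well above background on 2 of 5 saline arrays and on all 6 Ang II arrays. The rise was 2.53 (limma adjusted p = 0.0142), and the call was lost without saline 1 (limma adjusted p = 0.0515) or Ang II 5 (0.0551). Without Ang II 5 and 6 the T cells median was 0.0941. All 16 B cell genes had a positive change (median 0.783), none passed the limma test, and the median was -0.0853 without Ang II 5 and 6. Of the 16, 1 was higher at an unadjusted limma p below 0.05, where 9.05 percent of all genes were. The 12 MHC class II and antigen presentation genes had a median of 1.06 with none called, and a median of 0.354 without Ang II 5 and 6. Of the 12, 8 were higher at an unadjusted limma p below 0.05, against the same 9.05 percent. The lymph node and spleen stroma list stood at 1.81 and 1.58 in these 2 aortas and at 0.93 in saline 3, and its part in these values was not tested.

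The macrophage level was not highest in the same pair of aortas. It was 0.655 in Ang II 6 and 1.68 in Ang II 5, and the median change of the list without these 2 aortas was 1.22. Over all genes, 75 were called without Ang II 5 and 6, 69 of them among the 215, and 61 with the B cell and skeletal muscle levels as covariates, 60 of them among the 215. Of the 75, 2 were lower with Ang II, and of the 61, 0 were lower.

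Among 31 cytokines and chemokines 4 rose, 26 had a positive change and the median was 0.335. Ccl8, a chemokine for monocytes, stood at 3.23, 3.28, 3.28, 3.86 and 2.4 with saline. Its Ang II values ran from 4.27 through a median of 4.8 to 5.49. The groups were separate, and it rose by 1.64 (SE 0.3, 3.12-fold, limma adjusted p = 0.00636). Cxcl14, a chemokine of epithelial and stromal cells, went from 1.65, 1.51, 1.41, 0.76 and 0.41 to values from 1.7 through a median of 2.56 to 3.21. That was a rise of 1.37 without overlap (limma adjusted p = 0.00699). Il33, an alarmin of fibroblasts and endothelium, rose by 1.17 and Tgfb1 by 0.57; Il33 was lost without saline 1, saline 2, Ang II 1 or Ang II 5, and Tgfb1 held without only 4 of the 11 arrays (highest limma adjusted p 0.0769 and 0.141). Ccl2, the main monocyte chemokine, had a change of 0.23 (limma adjusted p = 0.844) and Il1b one of -0.16 (0.913), neither of which passed. Il6 was well above background on 4 Ang II arrays and on no saline array; its change of 0.41 did not pass (limma adjusted p = 0.657). Of 18 complement genes C1qb and C4b rose, by 1.35 and 1.01; C1qb was lost without saline 1 or Ang II 5 and C4b without saline 5 (highest limma adjusted p 0.0536 and 0.0726). Itgb2, the leukocyte beta-2 integrin, was the 1 of 17 adhesion genes called (1.21), and its call held without only 4 of the 11 arrays. None of 24 interferon response genes was called by limma, 11 were higher at an unadjusted p below 0.05 (9.05 percent of all genes were), and the median was 0.408.

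**Figure D3:**
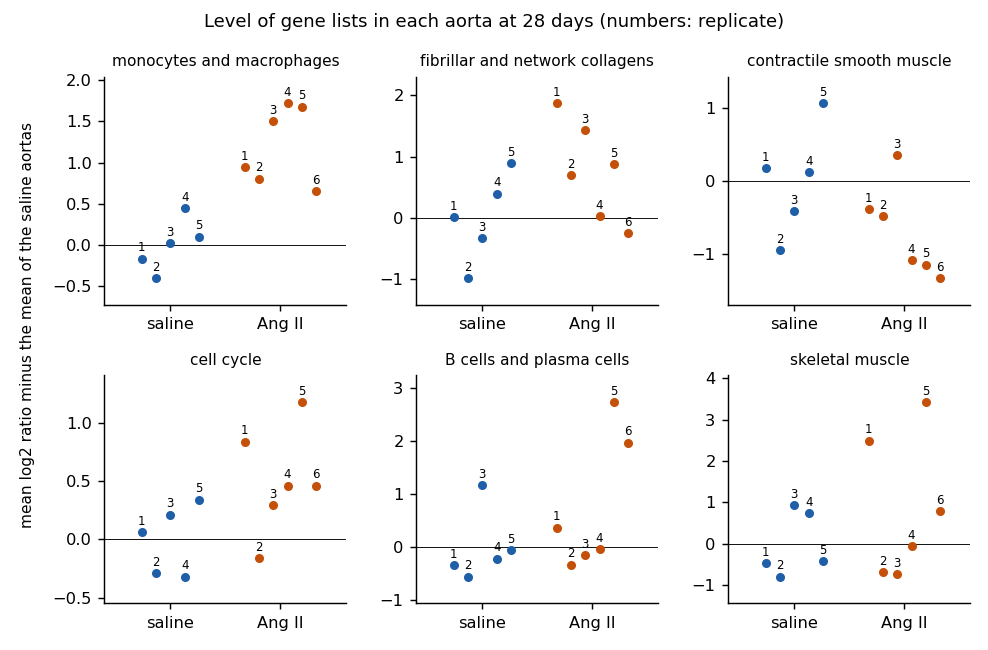
Each panel gives the mean log2 ratio over the genes of 1 list minus the mean of the saline aortas, with 1 point per aorta and its replicate number, for 5 saline and 6 Ang II aortas at 28 days. The macrophage level of every Ang II aorta lies above every saline aorta, while the B cell level is high in Ang II 5 (2.74) and 6 (1.97) and the skeletal muscle level in Ang II 5 (3.43) and 1 (2.49).

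Matrix genes mostly had a positive change, and few were called. Among 21 collagens Col8a1 and Col12a1 rose, 18 had a positive change and the median was 0.874. Col8a1, a short-chain collagen made by smooth muscle and endothelial cells of injured vessels, stood at -1.12, -1.89, -1.88, -1.93 and -1.07 in saline aortas. It ran from -0.048 through a median of 1.29 to 3.04 with Ang II. The lowest Ang II aortas, 6 and 4, were still above every saline aorta, and the rise was 2.91 (SE 0.49, 7.53-fold, limma adjusted p = 0.00257), the largest of all 215. Col12a1 rose by 1.37 with overlap (limma adjusted p = 0.0328) and held without 6 of the 11 arrays. Col1a1 and Col3a1, the chains of the main fibrillar collagens, had changes of 1.62 and 1.04 that did not pass (limma adjusted p = 0.177 and 0.341).

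The collagen changes differed between scan days, and that difference was not tested. Within day 1 their median was 2.24 with 9 called higher, and within day 2 it was -0.295 with 1 called higher and 3 lower. Of all 18670 genes, 91 were called higher within day 1, and 1790 higher and 1518 lower within day 2. Col1a1 had a change of 3.36 within day 1 (limma adjusted p = 0.0256) and 0.30 within day 2 (limma adjusted p = 0.78). The collagen level was -0.987 and -0.325 in saline 2 and 3, scanned on day 1. In saline 1, 4 and 5, scanned on day 2, it was 0.0181, 0.397 and 0.896, within the Ang II range of -0.245 to 1.87. Col8a1 was called within both days, at 3.76 (limma adjusted p = 0.0107) and 2.17 (limma adjusted p = 0.0152).

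None of 24 collagen processing genes was called by limma, and their median was 0.332. Of the 24, 7 were higher at an unadjusted limma p below 0.05, against 9.05 percent of all genes. Lox, the enzyme that cross-links collagen and elastin, had a change of 1.15 (limma adjusted p = 0.193). Of 17 elastic fibre genes Ltbp2 rose, and the median was 0.395. Ltbp2, a microfibril protein that competes with other latent TGF-beta binding proteins for fibrillin, was -0.11, 0.069, 0.035, -1.22 and -0.19 with saline and from 0.49 through a median of 1.48 to 1.97 with Ang II. Saline 4 was low, the groups did not overlap, and the change was 1.65 (SE 0.32, limma adjusted p = 0.00985). For elastin itself, Eln, the change was -0.0031 (SE 0.32, limma adjusted p = 0.998). Of 27 matricellular and proteoglycan genes Thbs1 rose, and the median was 0.592. Thbs1, thrombospondin-1, an activator of latent TGF-beta, was between -2.14 and -1.76 in saline aortas and from -1.62 through a median of -0.19 to 1.72 with Ang II. The groups were separate by a small margin at Ang II 6, with a rise of 1.86 (SE 0.38, limma adjusted p = 0.0114). Postn, periostin, had a change of -0.11 (limma adjusted p = 0.937) and Comp one of 0.85 (limma adjusted p = 0.211), neither of which passed.

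Of 35 extracellular proteases and inhibitors 5 rose, Ctss, Timp1, Mmp12, Ctsb and Mmp14, and none fell; 26 had a positive change and the median was 0.334. Ctss encodes cathepsin S, an elastin-cutting protease of macrophages. Its saline values were -0.8, -1.52, 0.5, 0.69 and -0.34, and with Ang II it ran from 1.12 through a median of 2.03 to 3.4. All Ang II aortas were above all saline aortas (change 2.47, SE 0.46, 5.54-fold, limma adjusted p = 0.00657). Timp1, an inhibitor of matrix metalloproteinases, was -1.27, -2.37, -2.04, -1.19 and -0.029 with saline, highest in saline 5. It ran from 0.13 through a median of 0.86 to 1.82 with Ang II. The lowest Ang II value, in aorta 6, was above saline 5, and the rise was 2.4 (SE 0.49, 5.28-fold, limma adjusted p = 0.0114).

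Mmp12, the macrophage elastase, was not well above background on any saline array and was so on 4 of 6 Ang II arrays. Its values were -0.42, -0.072, -0.21, -0.21 and -0.047 with saline and from 0.011 through a median of 1.52 to 2.0 with Ang II. Ang II 2 to 5 were high and Ang II 1 and 6 lay just above the saline range. The difference was at least 2.31-fold, as the bright group's mean against the lowest signal well above background (limma adjusted p = 0.00699). Mmp14, a membrane-bound collagenase, rose by 1.27 (limma adjusted p = 0.0494) with overlap, and the call held without only 4 of the 11 arrays. Mmp2, Mmp3, Mmp9 and Mmp13 did not pass, with changes of 0.83, 0.2, 0.16 and 0.54 (limma adjusted p from 0.235 to 0.926). The protease list had 3 genes called without saline 1 and 3 without Ang II 5.

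Of 30 growth factors and receptors Fgf18, Igf1 and Sfrp1 rose, with a median over the list of -0.024. Fgf18, a fibroblast growth factor known from bone and cartilage, was 0.48, 0.054, 0.24, 0.72 and 0.9 with saline. Its Ang II values ran from 2.36 through a median of 3.15 to 4.06. The gap between the groups was wider than the range of the saline values, and the rise was 2.67 (SE 0.36, 6.35-fold) with the smallest limma adjusted p of all genes, 0.00037. It was called under every alternative tried. Igf1 stood at 2.18, 1.96, 1.85, 1.83 and 2.19 with saline and from 2.79 through a median of 2.99 to 3.53 with Ang II. That was a rise of 1.11 without overlap (limma adjusted p = 0.00636). Sfrp1, a secreted Wnt antagonist of adventitial fibroblasts, rose by 1.06, lost without saline 1 or saline 2 (highest limma adjusted p 0.0743).

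Of 12 genes listed for activated fibroblasts Fgf18, Piezo2 and Cthrc1 rose, 8 had a positive change and the median was 0.534. This list was written with earlier results of these data known, so its rises do not test whether such cells were more frequent. Postn, on the same list, had the change of -0.11 given above. Piezo2, a stretch-activated ion channel, was 0.55, -0.11, 0.31, 1.12 and 0.8 in the saline aortas and from 1.57 through a median of 2.3 to 2.86 in the Ang II aortas. Every Ang II aorta was above every saline aorta (change 1.78, SE 0.26, limma adjusted p = 0.000766). Cthrc1, a secreted protein of activated fibroblasts, was -0.18, -0.08, 0.83, -0.0048 and 0.095 with saline and was well above background on 3 of 5 of these arrays. With Ang II it ran from 0.7 through a median of 1.7 to 4.48. Saline 3 was the high saline value and overlapped Ang II 4, and the rise was 1.86 (SE 0.38, limma adjusted p = 0.0114).

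The 30 TGF-beta and BMP genes had a median of -0.174, with 9 positive and Ltbp2 and Tgfb1 called. Of 32 cell cycle genes all had a positive change with a median of 0.499, but Kif20a alone was called (1.04, limma adjusted p = 0.0366), and its call held without only 5 of the 11 arrays; 20 were higher at an unadjusted p below 0.05, against 9.05 percent of all genes. Mki67, the proliferation antigen, had a change of 1.2 that did not pass (limma adjusted p = 0.101). Of 19 genes of the secretory pathway the endoplasmic reticulum chaperones Pdia4, Calr and Sdf2l1 rose, by 0.96, 0.68 and 1.25, with a list median of 0.15; Pdia4 stayed called without each array in turn, and the other 2 did not.

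Contractile genes of smooth muscle mostly had a negative change, and none was called. Of 21 genes 1 had a positive change and the median was -0.842, with 3 lower at an unadjusted p below 0.05 (limma), where 5.81 percent of all genes were. Acta2, smooth muscle actin, was 3.23, 1.23, 2.46, 3.62 and 5.05 with saline and from 0.88 through a median of 1.76 to 3.7 with Ang II. The saline values alone spanned the Ang II values except 0.88 in Ang II 6, and the change was -1.11 (SE 0.65, limma adjusted p = 0.433). Tagln and Myh11 had changes of -1.18 and -0.37 that did not pass (limma adjusted p = 0.494 and 0.653). Here too the scan days differed: the median was 0.454 within day 1 with none called, and -1.74 within day 2 with 12 called lower. Of all 18670 genes, 1518 were called lower within day 2. Saline 2 had the lowest saline level of the list, -0.956, and saline 5 the highest, 1.07. The 18 calcium handling and channel genes of smooth muscle had a median of -0.487 with none called and 6 lower at an unadjusted p below 0.05.

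The 23 endothelial genes had a median of 0.116 with none called and none at an unadjusted p below 0.05, and Pecam1, the endothelial adhesion molecule CD31, had a change of -0.14 (limma adjusted p = 0.763). The medians of 30 oxidative phosphorylation, 18 citric acid cycle and 22 fatty acid oxidation genes were 0.0031, 0.0038 and 0.152, with none called and none at an unadjusted p below 0.05. These pooled medians average opposite values of the scan days. Within day 1 the medians were -1.31, -1.19 and -1.25 with none called, and within day 2 they were 0.982, 0.953 and 1.23, with 5 oxidative phosphorylation genes called higher and 3 fatty acid oxidation genes called higher and 1 lower. Of all 18670 genes, 1790 were called higher and 1518 lower within day 2. The oxidative phosphorylation level was 1.18 and 0.801 in saline 2 and 3, scanned on day 1. It was 0.385, -1.03 and -1.34 in saline 1, 4 and 5, scanned on day 2, so the day 2 aortas did not stand together. The brown adipocyte level of the saline aortas, given above, was likewise lowest in saline 4 and 5, and its part in these values was not tested by itself. Agtr1a, the type 1 receptor of Ang II, was 3.66, 3.94, 2.75, 6.04 and 3.41 with saline and from 2.09 through a median of 2.74 to 5.84 with Ang II. Saline 4 and Ang II 2 were high, and the change was -0.7 (limma adjusted p = 0.753). Those 2 aortas also had the highest levels of the chromaffin and sympathetic neurons list, 1.02 and 0.732, against -3.21 to 0.278 elsewhere. The part of that list by itself in the Agtr1a values was not tested. All 20 genes of that list had a negative change, median -1.16, with none called and 3 lower at an unadjusted p below 0.05, against 5.81 percent of all genes.

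Among the 35 genes that fell, the largest fall without overlap was that of Hlf, a clock-controlled transcription factor, at 2.67, 3.17, 3.24, 2.68 and 3.06 with saline and from 0.19 through a median of 1.57 to 2.48 with Ang II. Ang II 5 was lowest and all saline aortas were above all Ang II aortas (change -1.49, SE 0.37, 2.81-fold lower, limma adjusted p = 0.0349). Hlf held without only 2 of the 11 arrays (highest limma adjusted p 0.144, without Ang II 5). It was the 1 of 19 circadian genes called; 8 of the list were lower at an unadjusted p below 0.05, against 5.81 percent of all genes, and the median was -0.324. Bex4 had the larger fall, -1.94 (limma adjusted p = 0.0144), with Ang II 2 and 3 inside the saline range, and was lost without saline 1, saline 5 or Ang II 5.

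Rhpn2 fell by 1.07 (limma adjusted p = 0.0142) and Lin52, a subunit of the DREAM cell cycle complex, by 0.9 (limma adjusted p = 0.0144). Each had no overlap, and each was lost without saline 1 or Ang II 5. Mtus1, which encodes a protein that binds the type 2 Ang II receptor, was 3.35, 3.15, 3.18, 3.15 and 3.16 with saline and from 1.49 through a median of 2.53 to 2.85 with Ang II. The saline aortas were tight, Ang II 5 was the lowest, and the change was -0.76 (SE 0.17, limma adjusted p = 0.0156); it was lost without saline 1 (limma adjusted p = 0.0615). Prkaa1, the alpha-1 subunit of AMP-activated kinase, had a change of -0.65, called without 9 of the 11 arrays. The phosphatase Ptpn11 (-0.65) was called without 5 of the 11, and the Ras exchange factor Sos2 (-0.67) and Pik3ca, a catalytic subunit of phosphoinositide 3-kinase (-0.6), without 8 each. All 4 were lost without saline 5 or Ang II 5 (highest limma adjusted p 0.12, for Ptpn11). Purb, a repressor of smooth muscle genes, fell by 0.56 without overlap and was lost without Ang II 5 (limma adjusted p = 0.0517). The other falls named by the rule, Rab18, Mrps14, Secisbp2l, Mettl15, Ccny, Zfp667 and Pigp, lay between -0.79 and -0.56. Zfp667 was called without only 2 of the 11 arrays, Mrps14 without 3, Secisbp2l without 4, Pigp without 5, Rab18 without 6, Ccny without 7 and Mettl15 without 10. Saline 5 ended the call of Mettl15, and the other 6 were all lost without Ang II 5 (highest limma adjusted p 0.17, for Zfp667). Centring each array on its median in place of the loess curve left 1 of the 203 genes called as lower, against 35 of 215, and within scan day 2 1518 of 3308 were lower. It was 0 of 61 with the B cell and skeletal muscle levels as covariates and 3 of 64 without Ang II 5, but 133 of 590 without Ang II 2. Within scan days 1 and 2 Bex4 changed by -0.41 and -3.15, Rhpn2 by -0.41 and -1.62, and Pik3ca by -0.2 and -0.9. Purb (-0.59 and -0.55) and Mrps14 (-0.72 and -0.68) went the other way. These differences between days were not tested.

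The effect of Ang II at 28 days was set beside the effects at 7 and 14 days, which use other aortas for both groups (4 Ang II and 6 saline at 7 days, 5 and 6 at 14 days, non-dissected). At 7 days 2763 genes were higher and 2615 lower, 14.8 and 14 percent of those tested, and at 14 days 196 were higher and 232 lower, 1.05 and 1.24 percent. Of the 215 genes, 195 were called in the same direction at 7 days, 90.7 percent of the 28-day list and 3.63 percent of the 7-day list. At 14 days 49 were called in the same direction, 22.8 percent of the 28-day list and 11.4 percent of the 14-day list. All 215 had the same sign at 7 days and 208 at 14 days. The genes that rose had a median of 1.14 at 28 days, 1.4 at 7 days and 0.547 at 14 days.

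Called at all 3 times were 48 genes, 39 higher and 9 lower. Col8a1 changed by 4.87, 3.02 and 2.91 at 7, 14 and 28 days, Trem2 by 3.49, 1.96 and 2.9, and Fgf18 by 3.48, 2.72 and 2.67. Timp1 changed by 4.88, 2.47 and 2.4, and Ccl8 by 2.76, 2.14 and 1.64. The same set held Piezo2, Ltbp2, Cd300c2 and Lst1 among the named genes. A further 147 were called at 28 and 7 days in 1 direction but not at 14 days, among them Ctss (2.77, 0.77 and 2.47) and Lgals3 (1.69, 0.56 and 2.33).

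**Figure D4:**
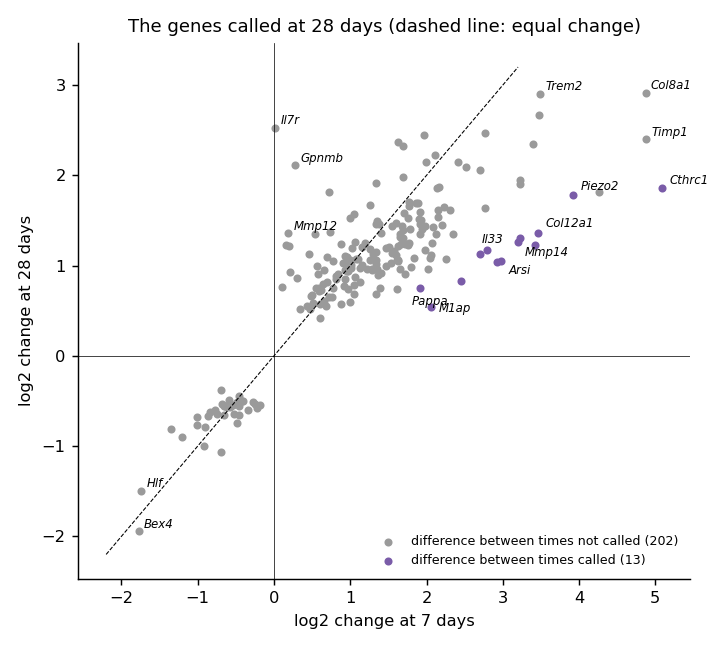
Each point is 1 of the 215 genes called at 28 days, with its log2 change at 7 days on the horizontal axis and at 28 days on the vertical axis; the dashed line marks equal change. All points lie in the quadrants of equal sign, and the 13 genes with a called difference between times lie on the side of the smaller change at 28 days.

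The difference between the effects at 28 and 7 days was called for 155 genes by its own limma test, 10 with a higher effect at 28 days (0.0536 percent of genes tested) and 145 with a lower one (0.777 percent). Of the 215 genes, 13 had a called difference, and in all 13 the change was smaller at 28 days. Cthrc1 went from 5.09 at 7 days to 1.86 at 28 days, a difference of -3.23 (SE 0.55, limma adjusted p = 0.00327), and Piezo2 from 3.92 to 1.78 (difference -2.15, limma adjusted p = 0.00469). Col12a1, Srpx2, Mmp14, Pappa, Il33, Arsi, Kif20a and Cdkn3 were of the same kind. Among genes not called at 28 days the matrix and secretory genes Col5a1, Ckap4, Fkbp10 and Fndc1, the Wnt ligand Wnt2 and the protease inhibitor Spink2 had differences from -2.74 (Col5a1) to -2.12 (Spink2). The count rests on single aortas. It was 42, 53, 55, 66, 83, 100 and 103 without saline 5, Ang II 6, Ang II 2, Ang II 4, saline 1, saline 3 and saline 4, and 288, 304 and 821 without Ang II 3, Ang II 5 and saline 2. It was 0 within scan day 1 and 579 within scan day 2.

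Among the 10 genes with a higher effect at 28 days were enzymes of fuel metabolism that had fallen at 7 days. The count of 10 was 0 without saline 5, Ang II 2 or Ang II 6, and 1 without Ang II 4. It was also 0 with median centring and with the replicate block. In the other direction, it was 72, 85 and 342 without Ang II 5, Ang II 3 and saline 2, and 397 with array weights. The largest difference was 2.96, for Immp2l, a subunit of a mitochondrial inner membrane protease (limma adjusted p = 0.0474). Pygl, glycogen phosphorylase, changed by -2.28 at 7 days (limma adjusted p = 0.00143) and had a difference of 0.58 at 28 days (limma adjusted p = 0.613). Me1, malic enzyme, went from -1.62 to 0.76, Pcx, pyruvate carboxylase, from -1.36 to 0.49, and Dgat2, the enzyme of triglyceride synthesis, from -2.11 to 0.083. None of these 4 was called at 28 days. Their saline values at 28 days were high in saline 1 and 2 and low in saline 5, and for Pygl they ran from 2.06 to 5.87. The brown adipocyte level was also high in saline 1 and 2 and low in saline 5, at 1.15, 0.733 and -1.57. Dgat2 is on the white and common adipocyte list. The neighbouring tissue scores are the levels of both fat lists and of the adrenal cortex, chromaffin and sympathetic neurons, kidney tubule and hepatocyte lists. With these scores as joint covariates, 0 genes had a called higher effect at 28 days than at 7 days and 7 a lower one. The part of fat by itself in these values was not tested. At 7 days the list medians were -1.57 for oxidative phosphorylation, -1.86 for the citric acid cycle and -1.79 for fatty acid oxidation. The pooled medians at 28 days, given above, hold only for both scan days together, and 1 gene of these lists, in the citric acid cycle, had a called higher effect at 28 days than at 7 days. The collagen median was 2.61 at 7 days, 1.44 at 14 days and 0.874 at 28 days, with 18, 11 and 2 of 21 genes called higher, and 3 of them had a called smaller effect at 28 days than at 7 days. Of 32 cell cycle genes 30 were higher at 7 days and 1 at 28 days, and 13 had a called smaller effect at 28 days. The macrophage median was 1.84, 0.748 and 1.23, with 26, 4 and 19 of 32 called, and no gene of that list had a called difference between 28 and 7 days.

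**Figure D5:**
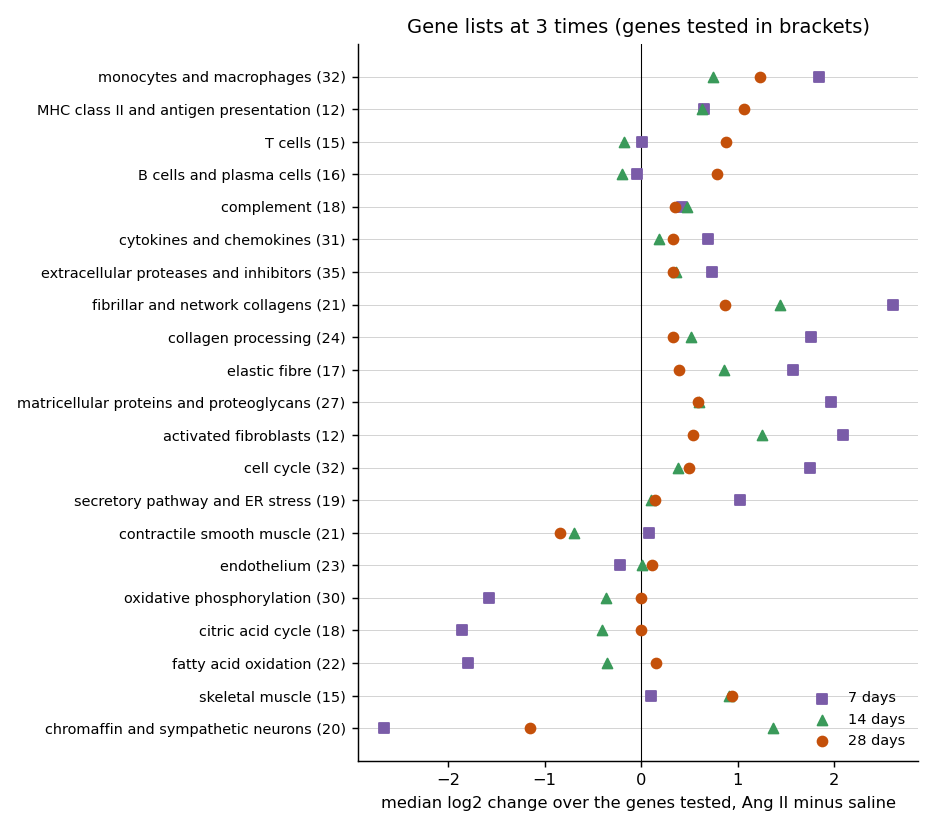
Each row is 1 gene list with the number of genes tested in brackets, and the horizontal axis is the median log2 change of Ang II against saline over those genes at 7, 14 and 28 days. The macrophage median is 1.84, 0.748 and 1.23 at these times, the collagen median goes from 2.61 to 0.874, and the 3 energy metabolism lists lie at -1.57, -1.86 and -1.79 at 7 days and at 0.0031, 0.0038 and 0.152 at 28 days, where scan day 1 alone gave -1.31, -1.19 and -1.25 and scan day 2 alone 0.982, 0.953 and 1.23.

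At 28 days and at neither earlier time 19 genes were called, 14 higher and 5 lower. The 14 that rose include Il7r (2.53, against 0.013 at 7 days and -0.16 at 14 days), Gpnmb (2.11, 0.27 and 0.69), the scavenger receptor Cd163l1 (1.82, 0.72 and 0.85) and Psap (1.23, 0.16 and 0.37). The others that rose were Mmp12, Ly9, Arhgap25, Il18bp, Cyp2d22, Gngt2, Slamf8, H2-T23, Mcoln3 and BC013672. The 5 that fell were Pik3ca, 4921524J17Rik, B230354K17Rik, Atxn7l3b and Leng1. In none of the 19 was the difference from the effect at 7 days called, so a call at 28 days alone is not shown to be a change between times. The difference between the effects at 28 and 14 days was called by limma for 0 genes; 886 genes had an unadjusted p below 0.05 and the smallest adjusted p was 0.93.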

How the data were processed

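RNA of 35 suprarenal aortas was hybridised to 2-colour Agilent arrays; 11 arrays are from 28 days. Per the file headers, the deposited scanner files hold mean and local background intensity in each channel, and a log10 ratio of red over green that was used only as a check. Log2 ratios in the authors' deposited table followed the scanner log10 ratio with a slope of 3.321 to 3.341 (column medians -0.06748 to 0.1086) and served as an alternative. Agilent Feature Extraction 9.5.3.1 is named in the submitters' processing notes. Background was corrected with normexp (offset 50). Spots more than 100 intensity units below their local background were left out of that estimate and set missing, a repair chosen after seeing the data, since 5 such spots on each raised the median corrected aorta signal to 497 and 581 on saline 2 and 4 (75.6 to 109 on all 11 arrays after it). On all spots 168 genes were called in place of 215. Arrays were loess-normalized and outlier spots of the scanner output dropped.

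Probes well above background in the aorta channel on at least 3 of the 35 arrays were kept, with the brightest probe per gene (27825 probes, 18670 genes). Symbols came from RefSeq by accession for 24375 probes, by current symbol for 6301 and by older symbol for 2426, and from the file for 8072. limma 3.58.1 in R 4.3.3 (statmod 1.5.0) fitted the 7 group means on all 35 arrays, with Benjamini-Hochberg adjustment; 63 genes had a missing value at 28 days. The fit was tested on simulated data.

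The groups come from the titles. The lists and the comparison were chosen with earlier results of these data known. Named genes are the 15 largest rises and the 15 largest falls without overlap, the 10 largest called at 3 times, the 8 largest differences from 7 days each way, called list members (at most 6 a list) and a fixed list; Gpnmb, Tyrobp, Syk, Cd5l, Bex4, Pik3ca, Bcl2a1b, Havcr2, Fcgr4, Arsi, Srpx2, Pappa, Cdkn3, Cd163l1 and the lysosomal, lipid and mediator genes were picked after their values were seen. The number of arrays limits the precision.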

Additional observations from a re-analysis of the deposited data

Results flagged for a closer look

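Among 280 tests of a far value, over 140 genes in both groups, 10 values stood far from the rest of their group, and about 1 in 20 such tests does so by chance. Ang II 5 gave 4 of them, the lowest value for Ccny (-0.3916), Mtus1 (1.493), Ptpn11 (-0.1476) and Secisbp2l (0.06042). In saline 3 Cthrc1 was highest (0.83) and Tlr1 was highest (0.832). Saline 4 was lowest for Ltbp2 (-1.223) and saline 1 highest for Mtus1 (3.349). Ang II 3 was highest for Tagln (4.793) and Ang II 1 lowest for Ucp1 (5.542), the uncoupling protein of brown fat.

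The effect of Ang II differed between 28 and 7 days for 155 genes by the limma test of that difference. It was smaller at 28 days by a log2 difference of -3.227 for Cthrc1, -2.735 for Col5a1, -2.41 for Ckap4, -2.322 for Wnt2, -2.246 for Fkbp10 and -2.222 for Fndc1. It was -2.147 for Piezo2, -2.122 for Spink2, -2.096 for Col12a1, -2.063 for Loxl2, -1.933 for Arsi and -1.929 for Mmp14. It was -1.91 for Srpx2, -1.888 for Kif20a, -1.623 for Il33, -1.62 for Cdkn3 and -1.17 for Pappa. In the other direction it was 2.959 for Immp2l, 2.858 for Pygl, 2.381 for Me1, 2.192 for Dgat2, 1.843 for Pcx, 1.825 for Fam13a, 1.075 for Mterf2 and 1.048 for Exoc6.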

How the results depend on the processing

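The 215 genes were chosen on the same arrays that the alternatives refit, which favours a kept sign. All 215 genes kept their sign at 28 days under every alternative except that with the filter of 6 of the 11 arrays, which tested 212 of them, all with the same sign, but the count of calls did not hold. It was 427 on the deposited table, 1 on the 11 arrays alone, 119 with array weights, 723 with the slide as a block, 109 and 3308 within scan days 1 and 2, and 51 with neighbouring tissue scores. Of the alternatives added after seeing the data, it was 75 without Ang II 5 and 6, 20 without saline 2 and 4, and 61 with B cell and skeletal muscle scores. Leaving out 1 array gave 64 to 590. For the difference between 28 and 7 days the count was 494 with the background estimated on all spots, 78 with median centring, 1110 with array weights, 35 with the slide as a block, 0 and 579 within scan days 1 and 2, 7 with neighbouring tissue scores, 354 without saline 2 and 4, and 42 to 821 without 1 array. For the difference between 28 and 14 days it was 0 except for 1 within each scan day and 0 to 1 without 1 array. The causes were not tested. With the replicate block the counts were 143 at 28 days (137 shared with the 215), 52 for the difference from 7 days and 0 for that from 14 days. Same-numbered aortas correlated at -0.427 to 0.164, so the numbers are not taken to pair them. Of 94 named calls, which do not include Havcr2 and Fcgr4, 28 held without each array in turn.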
